A study of Homo sapiens with 9 samples.

Results

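The 42 genes described here belong to the type I interferon response of a human bile duct cancer line. They were taken as every probe set on the array that carries 1 gene symbol and whose symbol, current or older, is on a list of receptors, transcription factors, sensors and antiviral effectors of this response. The rule that picked the probe sets used no measured value, but the list itself was chosen with earlier results of these data known. Of the 42 genes, 40 had such a probe set, 102 probe sets of 49395 on the array, and STAT2 and USP18 were not analysed here. The level of 28 genes passed the filter on dim probe sets, among 12434 genes that passed it in all. The other 12 genes with a probe set were too dim to enter the main test.

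The cells were HCCC-9810, an established human cholangiocarcinoma line. One group of samples, si-BAP1, had been given siRNAs against BAP1, a deubiquitinase and tumour suppressor. Another, si-MBD5, had been given siRNAs against MBD5, a methyl-CpG-binding domain protein. The third, si-Control, is called by that name in the sample titles and a control shRNA elsewhere in the labels, and which of these was used is not settled. Each group had 3 samples, described as biological replicates, and all came from this single line, so a p-value here reflects variation among samples of that line alone. The labels used here give no interferon treatment, no time after transfection and no number of siRNAs. RNA was labelled from 6 ug of total RNA per sample and read on Affymetrix arrays. The arrays did not settle how far the targets were lowered: BAP1 was not analysed here, and MBD5 was near the bottom of the arrays (11.9th percentile), where its brighter probe set read 6.11 to 6.20 in si-MBD5, 6.90 to 7.16 in control and 6.99 to 8.66 in si-BAP1.

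Type I interferons are secreted cytokines that bind a receptor made of IFNAR1 and IFNAR2. The receptor acts through the kinases JAK1 and TYK2, which phosphorylate STAT2, and STAT2 joins IRF9 in the complex ISGF3. ISGF3 binds interferon-stimulated response elements (ISRE) in the promoters of a large group of antiviral genes, while interferon gamma acts mainly through gamma-activated sites (GAS). In epithelial cells these genes have a basal level without added interferon, and IRF1 is among the factors that maintain it.

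RefSeq promoter entries (GRCh38.p14) were found for 33 of the 42 genes. The 250 bases before each start were searched on both strands for the ISRE core GAAANNGAAA and for the GAS motif TTCNNNGAA, where N is any base. The ISRE core was present in 17 of the 33 promoters (51.5%) and in 839 of all 27305 promoters in the table (3.07%). GAS was present in 8 of the 33 (24.2%) and in 1850 of all promoters (6.78%). Matches can overlap one another, 13 of the 33 windows held 2 or more ISRE cores, and 4 held both motifs. The 6 stretches below are the 150 bases before the start of 4 genes that were lower in both knockdowns and of the pair that were higher than control in 1 of them, chosen after their values were seen. They show how the promoters of genes that moved differently compare; capitals mark ISRE cores and GAS matches on either strand, and a match describes the letters, not an occupied site.
IRF1, chr5:132490774-132490923, - strand: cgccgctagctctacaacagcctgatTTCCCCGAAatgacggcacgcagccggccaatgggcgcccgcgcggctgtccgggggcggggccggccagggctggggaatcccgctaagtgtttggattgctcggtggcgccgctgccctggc
PLSCR1, chr3:146544608-146544757, - strand: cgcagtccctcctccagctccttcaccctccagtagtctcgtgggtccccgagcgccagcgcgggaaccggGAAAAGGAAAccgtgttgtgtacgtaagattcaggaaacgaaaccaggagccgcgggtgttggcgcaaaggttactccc
IFIT5, chr10:89414418-89414567, + strand: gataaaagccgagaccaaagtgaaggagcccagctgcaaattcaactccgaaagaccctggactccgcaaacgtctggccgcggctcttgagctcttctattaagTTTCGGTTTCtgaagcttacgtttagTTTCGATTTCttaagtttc
ISG15, chr1:1013347-1013496, + strand: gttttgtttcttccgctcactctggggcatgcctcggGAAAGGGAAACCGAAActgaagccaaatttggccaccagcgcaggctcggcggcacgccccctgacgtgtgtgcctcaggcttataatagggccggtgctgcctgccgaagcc
BST2, chr19:17405631-17405780, - strand: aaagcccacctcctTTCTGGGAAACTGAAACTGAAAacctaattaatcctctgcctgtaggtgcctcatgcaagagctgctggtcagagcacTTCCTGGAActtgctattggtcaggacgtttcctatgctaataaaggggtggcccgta
HERC5, chr4:88456969-88457118, + strand: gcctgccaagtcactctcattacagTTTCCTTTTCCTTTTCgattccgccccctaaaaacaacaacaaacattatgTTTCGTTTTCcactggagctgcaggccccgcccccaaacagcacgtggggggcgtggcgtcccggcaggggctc
The IRF1 stretch held a GAS match that ended 116 bases before the start and no ISRE core. PLSCR1 had an ISRE core that ended 70 bases before the start. It also held an unmarked gaaacgaaa, a similar sequence with closer spacing that the pattern does not match. In IFIT5 a pair of ISRE cores ended 36 and 10 bases before it, and in ISG15 an overlapping pair ended 104 and 98 bases before it. BST2 held overlapping ISRE cores at 121 and 115 bases and GAS matches at 128 and 50 bases. HERC5 held ISRE cores at 116, 110 and 65 bases. ISRE cores were thus present before genes that were higher in a knockdown and before genes that were lower.

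In si-BAP1 cells the interferon genes that passed the test were mostly lower than in control cells. Of the 28 genes above the filter, 11 were lower and 1 was higher, 42.9% in all, where 23.5% of all tested genes passed in either direction and 11.1% were lower. The falls covered both receptor chains, IRF1, 2 IFIT proteins, IFITM1, ISG15 and 4 further effectors, and ranged from 1.14-fold to 1.36-fold on the log2(intensity + 16) scale. In 16 of the 28 genes the si-BAP1 arrays did not overlap the control arrays, against 37.5% of all genes. The median log2 fold change was -0.10 over these genes and 0.00047 over all genes. Each fold change compares group means on that scale, and the added 16 shrinks it relative to the ratio of intensities; each p is limma's, adjusted by Benjamini-Hochberg over all genes. In a bulk sample, fewer cells with a transcript and less of it per cell cannot be told apart.

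In si-MBD5 cells 6 of the 28 genes were lower and 1 was higher, 25% in all, where 16.3% of all genes passed in either direction and 8.99% were lower. IRF1, IFIT2, IFIT5, IFITM1, ISG15 and PLSCR1 fell and HERC5 rose. In 13 genes the si-MBD5 and control arrays did not overlap, against 30.4% of all genes. The median log2 fold change was -0.062, against 0.000085 over all genes. Both knockdowns were compared with the same 3 control arrays, so their values are given side by side and are not independent of each other.

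**Figure D1:**
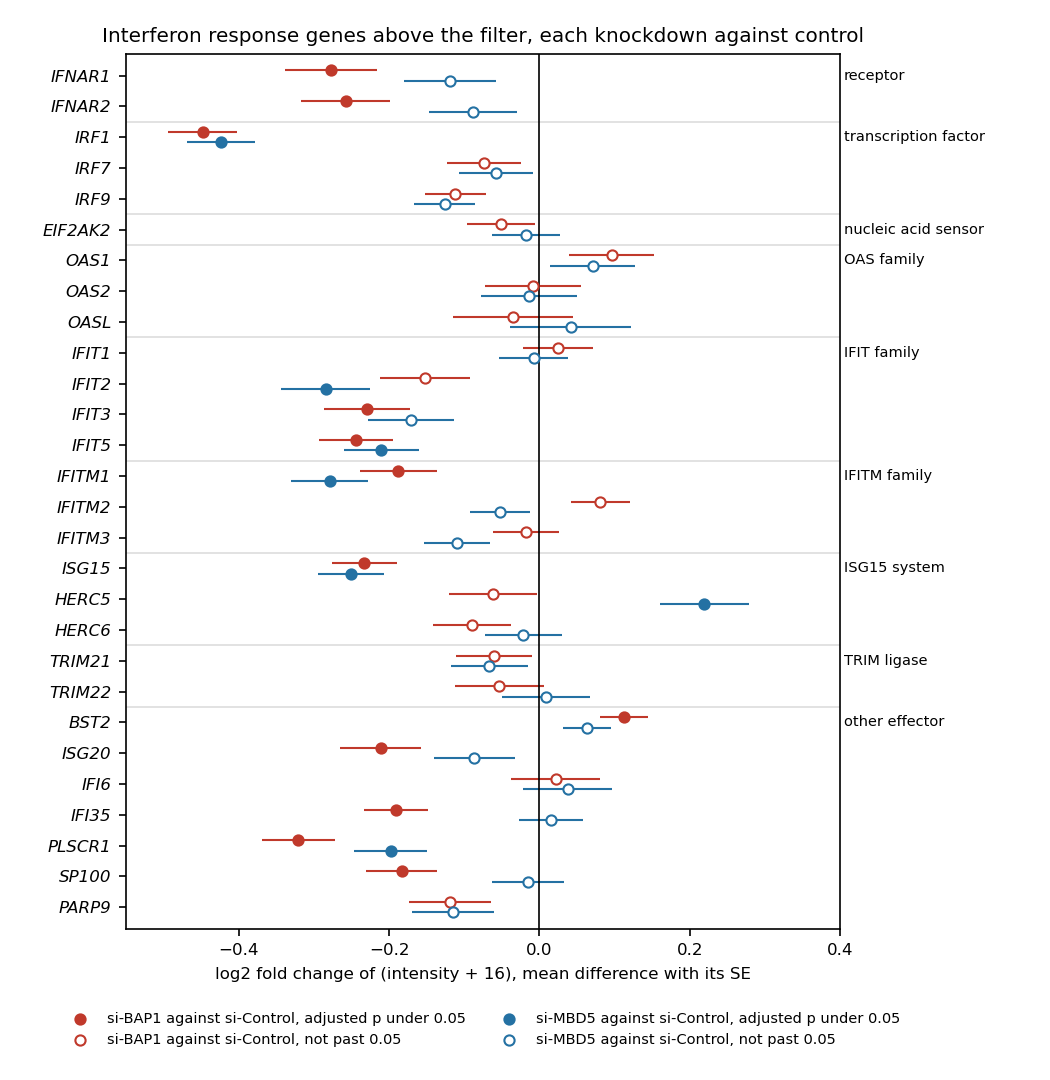
Log2 fold change of log2(intensity + 16) against si-Control (x axis) for the 28 interferon genes above the filter (rows, grouped by role), with the standard error as a bar; red is si-BAP1, blue is si-MBD5, and filled points have an adjusted p under 0.05. IRF1 lies at -0.45 and -0.42, and HERC5 lies to the right of 0 for si-MBD5 only.

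Some other measures moved with the groups. The 3'/5' signal ratio of ACTB, a sign of RNA integrity and labelling, was 10.8 to 11.4 on si-BAP1 arrays, below the 11.8 to 12.8 of control, and 11.6 to 13.02 on si-MBD5 arrays; that of GAPDH was 1.03 to 1.09 and overlapped. The part of this difference in the si-BAP1 results was not tested. Of 7 cholangiocyte markers 4 were above the filter (KRT7, KRT8, KRT18 and SOX9), and KRT19 and EPCAM, which commonly mark these cells, were below it in all groups, at 20.4 to 20.6 and 7.90 to 9.79 on average. KRT8 read 803 to 842 in si-BAP1, above the 628 to 680.3 of control, and 647 to 719 in si-MBD5. KRT7 read 955 to 1050.4 in si-BAP1 and 930.1 to 1014 in si-MBD5, below the 1069 to 1146 of control, and KRT18 and SOX9 overlapped control in both. Immune markers had 2 of 7 genes above the filter, a summed intensity of 123 to 146 in si-BAP1, 131 to 138 in control and 128 to 139 in si-MBD5, and PTPRC at 3.35 to 3.80 on average. Fibroblast markers had 2 of 5 above the filter and a sum of 133 to 143 in si-BAP1 and 130 to 144 in si-MBD5, above the 118 to 126 of control, with LUM at 2.24 to 2.38 on average. PDGFRB read 60.1 to 64.5 in si-BAP1 and 61.9 to 69.6 in si-MBD5, above its 50.9 to 56.4 in control. DCN, below the filter, read 24.4 to 25.2 in si-BAP1 against 15.1 to 18.8 in control and 18.5 to 19.1 in si-MBD5. COL1A1 and COL1A2 overlapped control in both knockdowns. COL1A1 averaged 29.9 in si-BAP1, 29.4 in control and 29.2 in si-MBD5. COL1A2, below the filter, averaged 18.2, 19.3 and 21.0 in the same order. The part of these markers in the results was not tested. Endothelial (3 of 4 above the filter) and hepatocyte (2 of 5) sums overlapped between all groups.

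Array by array, the median departure of the 28 genes from their control means was -0.13, -0.12 and -0.10 on the si-BAP1 arrays. On the si-MBD5 arrays it was -0.082, -0.062 and -0.058, and on the control arrays themselves 0.013, 0.011 and -0.012. All 6 knockdown arrays were thus below the 3 control arrays, and the control arrays' own values lie near 0 because their mean is the reference. The median SD within a group was 0.059 log2 for these genes and 0.061 for all genes.

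The receptor chains come first, since the response starts from them. IFNAR1, the chain that binds TYK2, had intensities of 131, 134 and 146 in control, 108, 109 and 113 in si-BAP1 and 119, 139.8 and 117 in si-MBD5. All si-BAP1 arrays were below all control arrays, and the second si-MBD5 array lay among the controls. IFNAR1 was 1.21-fold lower in si-BAP1 than in control cells (log2 -0.28, SE 0.061, adjusted p = 0.00457). In si-MBD5 cells the log2 fold change was -0.12 (adjusted p = 0.225), and it passed when that second array was left out (adjusted p = 0.0273). Of its 4 probe sets above the filter 2 were lower in si-BAP1, and the 4 ranged from -0.28 to -0.027.

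IFNAR2, the chain that binds JAK1, gave 92.0, 94.8 and 101 on control arrays, 70.5, 86.4 and 76.6 on si-BAP1 arrays and 88.8, 88.8 and 90.2 on si-MBD5 arrays. The 3 groups were ordered with si-BAP1 lowest, si-MBD5 between and control highest, with no overlap. In si-BAP1, IFNAR2 was lower than in control by 1.20-fold (log2 -0.26, SE 0.059, adjusted p = 0.00574). The si-MBD5 difference of -0.088 did not pass (SE 0.059, adjusted p = 0.368). The direct differences between the knockdowns, -0.16 for IFNAR1 and -0.17 for IFNAR2, did not pass either (adjusted p = 0.134 and 0.0941), although the si-BAP1 arrays lay below the si-MBD5 arrays for both genes. On chromosome 21 RefSeq lists the genes in the order IFNAR2, IL10RB, IFNAR1, IFNGR2. IL10RB, a receptor chain of interferon lambda and interleukin 10, had log2 fold changes of -0.11 in si-BAP1 (adjusted p = 0.203) and -0.21 in si-MBD5 (adjusted p = 0.0278). IFNGR2, a chain of the interferon gamma receptor, had 0.050 and 0.011 (adjusted p = 0.493 and 0.910).

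Among the transcription factors, IRF1 had the largest fall of the 28 genes in both knockdowns. IRF1, which binds ISRE-like elements and is itself induced through GAS, read 83.5, 87.4 and 80.6 on the control arrays, 59.0, 56.1 and 56.2 on the si-BAP1 arrays and 57.1, 59.1 and 59.0 on the si-MBD5 arrays. Every knockdown array lay below every control array, and the si-BAP1 and si-MBD5 arrays overlapped each other. The ratio of mean intensities to control was 0.682 in si-BAP1 and 0.697 in si-MBD5. In si-BAP1, IRF1 was lower than in control by 1.36-fold (log2 -0.45, SE 0.045, adjusted p = 1.08e-05). IRF1 was 1.34-fold lower in si-MBD5 than in control cells (log2 -0.42, SE 0.045, adjusted p = 4.53e-05). The knockdowns differed from each other by -0.025 (SE 0.045, adjusted p = 0.801). A dimmer IRF1 probe set gave smaller differences, -0.17 in si-BAP1 (adjusted p = 0.0155) and -0.12 in si-MBD5 (adjusted p = 0.107).

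IRF9, the DNA-binding part of ISGF3, had intensities of 87.4, 88.5 and 87.1 in control, 80.4, 79.4 and 79.9 in si-BAP1 and 78.0, 78.6 and 80.4 in si-MBD5. On this brightest probe set the arrays of both knockdowns lay below those of the controls, but neither difference passed. The log2 fold changes were -0.11 (SE 0.041, adjusted p = 0.0628) and -0.13 (SE 0.041, adjusted p = 0.0508). Each passed under some other settings (3 for si-BAP1 and 4 for si-MBD5). The dimmer IRF9 probe sets above the filter overlapped control in both knockdowns. They gave -0.12 and -0.090 in si-BAP1 (adjusted p = 0.185 and 0.304) and -0.11 and -0.071 in si-MBD5 (adjusted p = 0.279 and 0.468). IRF7, which amplifies interferon production, gave 56.8, 56.7 and 54.5 on control arrays, 49.6, 53.7 and 54.1 on si-BAP1 arrays and 54.1, 50.3 and 55.2 on si-MBD5 arrays. The si-BAP1 arrays lay just under the control arrays and the si-MBD5 arrays overlapped them. Its log2 fold changes of -0.074 and -0.058 did not pass (adjusted p = 0.335 and 0.488).

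Of the 5 sensors of foreign nucleic acid, only EIF2AK2, the double-stranded RNA kinase PKR, was above the filter. Its log2 fold changes were -0.051 and -0.018, and neither passed (adjusted p = 0.485 and 0.845). The RNA helicases IFIH1 (MDA5), RIGI (listed as DDX58) and DDX60 and the DNA sensor IFI16 were below it. The oligoadenylate synthetases, which activate RNase L, gave no call: OAS1 differed by 0.096 and 0.071, OAS2 by -0.0084 and -0.014 and OASL by -0.036 and 0.042, with adjusted p from 0.263 up to 0.947 over the 6 tests. OAS2 and OAS3 also have probe sets shared between several symbols, which were not read.

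The IFIT proteins bind viral RNA, and their genes lie together on chromosome 10 in the RefSeq order IFIT2, IFIT3, IFIT1B, IFIT1, IFIT5. IFIT5 read 124, 133 and 141 on the control arrays, 106, 113 and 109 on the si-BAP1 arrays and 112, 113 and 112 on the si-MBD5 arrays. All 6 knockdown arrays were below the 3 control arrays, and the knockdowns overlapped. The si-BAP1 level of IFIT5 was 1.18-fold lower than that of control (log2 -0.24, SE 0.050, adjusted p = 0.00267). In si-MBD5, IFIT5 was lower than in control by 1.16-fold (log2 -0.21, SE 0.050, adjusted p = 0.0108). Its dimmer probe set gave -0.13 and -0.056, neither past the threshold, and with the mean of its probe sets the si-MBD5 call was lost (adjusted p = 0.0990).

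IFIT3 had intensities of 59.1, 59.5 and 51.3 in control, 48.2, 45.2 and 44.1 in si-BAP1 and 49.1, 45.5 and 50.8 in si-MBD5. Both knockdowns lay wholly below control, the third control array being the lowest of its group. IFIT3 was 1.17-fold lower in si-BAP1 than in control cells (log2 -0.23, SE 0.057, adjusted p = 0.00970). Without si-Control replicate 2 that call was lost (adjusted p = 0.0524). In si-MBD5 the difference of -0.17 missed the threshold (SE 0.057, adjusted p = 0.0602). IFIT2 gave 34.9, 40.8 and 40.02 on control arrays, 32.0, 33.6 and 33.6 on si-BAP1 arrays and 26.9, 32.1 and 27.5 on si-MBD5 arrays. Its arrays were separated from control in both knockdowns, and the 3 si-MBD5 values included the lowest. In si-MBD5, IFIT2 was lower than in control by 1.22-fold (log2 -0.28, SE 0.060, adjusted p = 0.00522). In si-BAP1 it differed by -0.15 (SE 0.060, adjusted p = 0.0858). The direct difference between the knockdowns was 0.13 (adjusted p = 0.201), which did not pass. IFIT1, the fourth member, differed by 0.025 and -0.0074 (adjusted p = 0.770 and 0.944).

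The IFITM proteins block virus entry at membranes. Their closely related genes lie side by side on chromosome 11 in the order IFITM2, IFITM1, IFITM3. The probe sets may read more than 1 of them, so the separate values are uncertain. IFITM1 read 80.9, 70.7 and 74.6 on the control arrays, 63.6, 63.6 and 65.4 on the si-BAP1 arrays and 56.8, 58.9 and 62.2 on the si-MBD5 arrays. The control arrays were highest, the si-BAP1 arrays came next and the si-MBD5 arrays were lowest, without overlap. IFITM1 was 1.14-fold lower in si-BAP1 than in control cells (log2 -0.19, SE 0.051, adjusted p = 0.0167). The si-MBD5 level of IFITM1 was 1.21-fold lower than that of control (log2 -0.28, SE 0.051, adjusted p = 0.00231). Without si-Control replicate 1 the si-BAP1 call was lost (adjusted p = 0.0755). A dimmer probe set was also lower in both, by -0.18 (adjusted p = 0.0128) and -0.19 (adjusted p = 0.0160).

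IFITM2 had intensities of 2599.7, 2511 and 2352 in control, 2680.4, 2576 and 2634 in si-BAP1 and 2294, 2404 and 2495 in si-MBD5. The control arrays overlapped both knockdowns, whose own arrays did not overlap each other. IFITM2 was 1.10-fold higher in si-BAP1 than in si-MBD5 cells (log2 0.13, SE 0.039, adjusted p = 0.0486). Against control the differences were 0.081 in si-BAP1 (adjusted p = 0.170) and -0.052 in si-MBD5 (adjusted p = 0.430). This call was lost in 10 of 17 other settings, including each of those without si-BAP1 replicate 1, 2 or 3 or si-MBD5 replicate 1 or 2 (adjusted p = 0.0768 to 0.206 in those 5). For IFITM3 the arrays read 1510.2, 1526 and 1358 in control, 1463, 1427 and 1445 in si-BAP1 and 1297, 1364 and 1405 in si-MBD5, and no difference passed (-0.018 and -0.11 against control, adjusted p = 0.835 and 0.119).

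ISG15 is a ubiquitin-like protein that is joined to other proteins by UBE2L6 and HERC5 and removed by USP18. ISG15 gave 215, 225 and 217 on control arrays, 181, 189 and 181 on si-BAP1 arrays and 183, 173 and 189 on si-MBD5 arrays. Every knockdown array was below every control array, and the knockdowns overlapped each other. The si-BAP1 level of ISG15 was 1.18-fold lower than that of control (log2 -0.23, SE 0.044, adjusted p = 0.00151). In si-MBD5, ISG15 was lower than in control by 1.19-fold (log2 -0.25, SE 0.044, adjusted p = 0.00161). The direct difference was 0.018 (SE 0.044, adjusted p = 0.857).

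HERC5, the ISG15 ligase, read 126, 127 and 135 on the control arrays, 120.2, 129.9 and 119 on the si-BAP1 arrays and 149.9, 168 and 141 on the si-MBD5 arrays. The 3 si-MBD5 arrays lay above all others, and the si-BAP1 arrays overlapped the control arrays. HERC5 was 1.16-fold higher in si-MBD5 than in control cells (log2 0.22, SE 0.059, adjusted p = 0.0210). In si-BAP1 cells it differed by -0.062 (adjusted p = 0.524). HERC5 was 1.22-fold lower in si-BAP1 than in si-MBD5 cells (log2 -0.28, SE 0.059, adjusted p = 0.00824). This difference between the knockdowns passed in all 18 other settings. The rise over control did not pass without si-Control replicate 1 (adjusted p = 0.0729) or 2 (0.0814), nor without si-MBD5 replicate 1 (0.0507) or 2 (0.0693). HERC6, its neighbour on chromosome 4, differed by -0.090 and -0.021 (adjusted p = 0.254 and 0.839). The ubiquitin ligases TRIM21, an antibody receptor of the cytosol, and TRIM22 also gave no call, with differences from -0.067 to 0.0084.

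**Figure D2:**
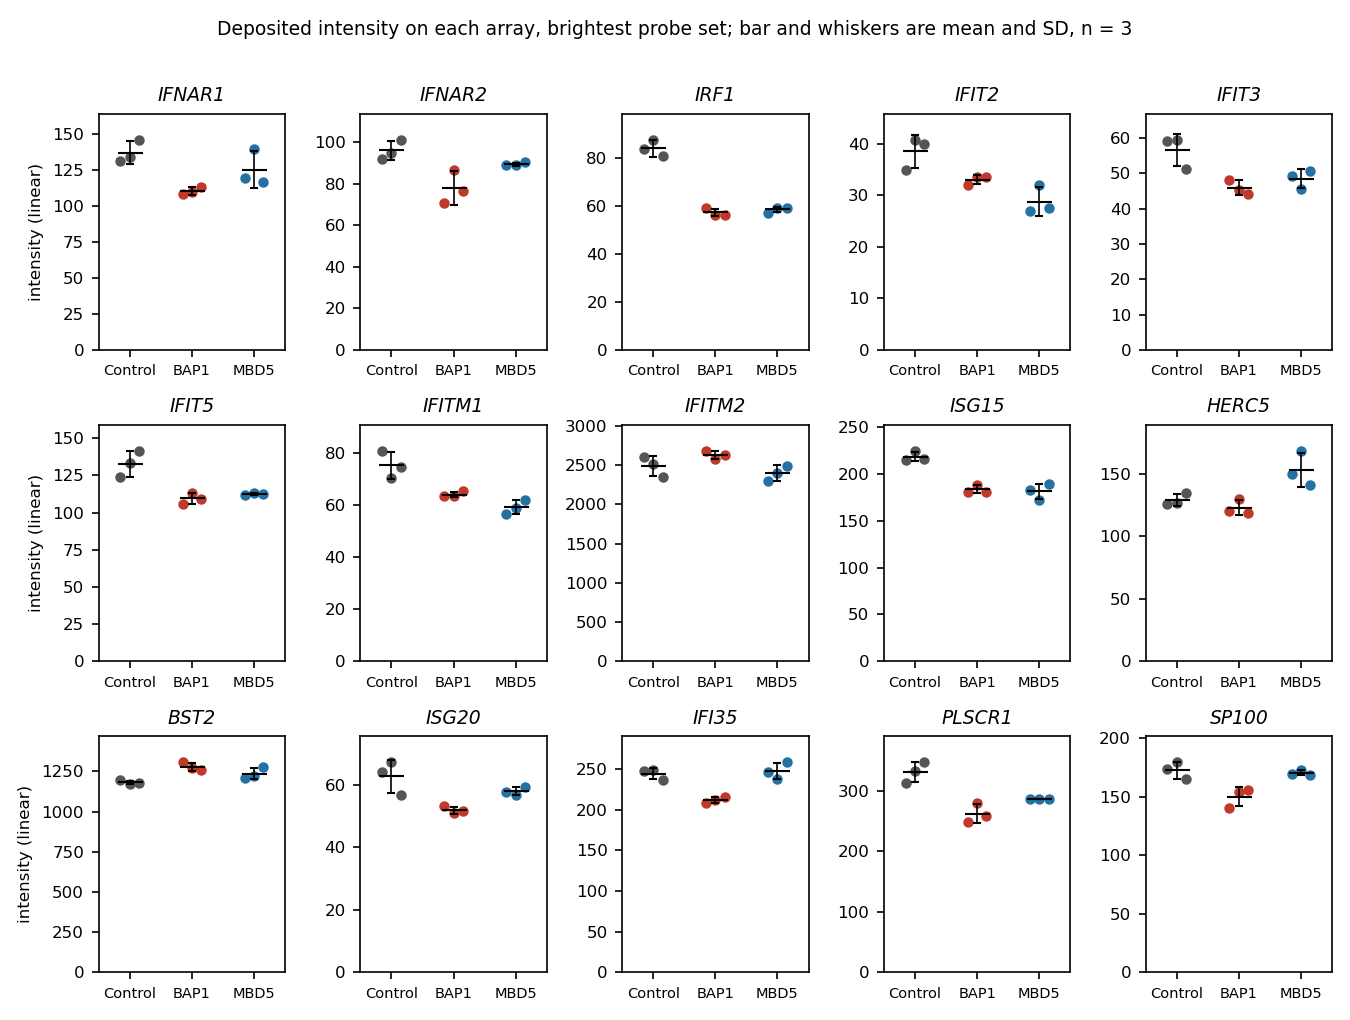
Deposited intensity (y axis, linear, from 0) of the brightest probe set on each of the 9 arrays, for the 15 interferon genes past the threshold in at least 1 of the 3 comparisons; points are arrays, the bar and whiskers are the mean and SD of 3. The IRF1 and ISG15 points of both knockdowns lie below control, those of HERC5 are highest in si-MBD5, and IFI35 is low in si-BAP1 only.

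Of the 7 remaining effectors above the filter, 4 fell and 1 rose in si-BAP1 (71.4%), against 23.5% of all genes. In si-MBD5 1 of the 7 fell and 0 rose (14.3%), against 16.3% of all genes. PLSCR1, a phospholipid scramblase with antiviral action, had intensities of 314, 334 and 347 in control, 249, 279.6 and 258 in si-BAP1 and 287, 287 and 287 in si-MBD5. The groups did not overlap, with si-BAP1 lowest and control highest, and the 3 si-MBD5 arrays hold the same deposited value. Such repeats occur across the table: 481 to 531 probe sets had a single value on all 3 arrays of a group, and 3.77% to 5.49% of values were identical between any pair of arrays, within groups and between them. An SD of 0 is then no measure of the spread. The limma fit shares the spread across genes and groups, but the repeats still enter it. They could make the SE of PLSCR1 and of other genes too small, which was not tested.

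The si-BAP1 level of PLSCR1 was 1.25-fold lower than that of control (log2 -0.32, SE 0.049, adjusted p = 0.000283). In si-MBD5, PLSCR1 was lower than in control by 1.15-fold (log2 -0.20, SE 0.049, adjusted p = 0.0137). Of its 6 probe sets above the filter, 5 were lower in si-BAP1 (log2 -0.32 to -0.11 over the 6) and 3 in si-MBD5 (-0.22 to -0.14). The si-MBD5 call was lost without si-Control replicate 2 (adjusted p = 0.0571) or 3 (0.0575).

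IFI35, a partner of NMI, gave 247, 249 and 237 on control arrays, 208, 212 and 216 on si-BAP1 arrays and 246, 238 and 258 on si-MBD5 arrays. The si-BAP1 arrays lay below all 6 other arrays, while the si-MBD5 and control arrays overlapped. The si-BAP1 level of IFI35 was 1.14-fold lower than that of control (log2 -0.19, SE 0.043, adjusted p = 0.00484). In si-BAP1, IFI35 was lower than in si-MBD5 by 1.15-fold (log2 -0.21, SE 0.043, adjusted p = 0.00760). In si-MBD5 cells it differed by 0.016 (adjusted p = 0.855).

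SP100, a protein of PML nuclear bodies, read 173, 179 and 165 on the control arrays, 141, 154 and 156 on the si-BAP1 arrays and 169, 173 and 169 on the si-MBD5 arrays. The si-BAP1 arrays were again the lowest, and the si-MBD5 arrays lay within the control range. The si-BAP1 level of SP100 was 1.14-fold lower than that of control (log2 -0.18, SE 0.048, adjusted p = 0.0123). The difference between the knockdowns, -0.17 (SE 0.048, adjusted p = 0.0405), was lost in 12 of 18 other settings, including each that left out an array of either knockdown (adjusted p = 0.0596 to 0.148). Of its 6 probe sets above the filter, 4 were lower in si-BAP1 against control, 1 was lower in si-MBD5 against control (log2 -0.20, adjusted p = 0.0122), and the difference between the knockdowns ran from -0.17 to 0.045. The call against control did not pass when si-Control replicate 2 (adjusted p = 0.0667) or si-BAP1 replicate 1 (0.0616) was left out.

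ISG20, an exonuclease that degrades RNA, had intensities of 64.2, 67.2 and 56.7 in control, 53.1, 50.9 and 51.6 in si-BAP1 and 57.9, 56.7 and 59.5 in si-MBD5. The si-BAP1 arrays were below the other 6, and the si-MBD5 arrays overlapped control. In si-BAP1, ISG20 was lower than in control by 1.16-fold (log2 -0.21, SE 0.054, adjusted p = 0.0107). The si-BAP1 call was lost without si-Control replicate 2 (adjusted p = 0.0624). The si-MBD5 difference was -0.086 (adjusted p = 0.326), and the knockdowns differed by -0.12 (adjusted p = 0.179).

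BST2, or tetherin, which holds budding virus at the cell surface, gave 1194, 1173 and 1179.6 on control arrays, 1306, 1273 and 1258 on si-BAP1 arrays and 1209, 1223 and 1276 on si-MBD5 arrays. It was the only one of the 28 genes called higher in si-BAP1 than in control, with those arrays above all control arrays. In si-BAP1, BST2 was higher than in control by 1.08-fold (log2 0.11, SE 0.032, adjusted p = 0.0199). The si-MBD5 arrays also lay above control, but the difference of 0.063 did not pass (adjusted p = 0.215). Of its 3 probe sets above the filter 2 were higher in si-BAP1, and the call did not pass with no intensity trend (adjusted p = 0.0525), nor when si-Control replicate 2 (0.0785) or si-BAP1 replicate 1 (0.0847) was left out.

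PARP9, which pairs with DTX3L, has a pair of probe sets above the filter that differ in call. Its brightest probe set differed by -0.12 and -0.11 (adjusted p = 0.143 and 0.187). Its dimmer probe set read 54.1, 52.9 and 61.7 in control, 40.4, 44.8 and 40.8 in si-BAP1 and 45.0, 48.5 and 44.4 in si-MBD5. In the dimmer one both knockdowns lay wholly below control, with log2 fold changes of -0.31 (SE 0.057, adjusted p = 0.00138 over all probe sets) and -0.22 (SE 0.057, adjusted p = 0.0221). IFI6, a mitochondrial and endoplasmic reticulum protein, differed by 0.022 and 0.038 (adjusted p = 0.850 and 0.735).

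Members without a call ranged from -0.15 to 0.096 in si-BAP1 (16 genes, adjusted p 0.0628 to 0.947) and from -0.17 to 0.071 in si-MBD5 (21 genes, adjusted p 0.0508 to 0.950). A missed threshold does not show that a gene was the same in both groups. Among the 21 members above the filter that have a promoter entry, 11 held the ISRE core and 10 did not. That split counts only the exact pattern before 1 start per gene. The OAS1 and IFI35 windows, among the 10, hold gaaacgaaa and gaaatgaaa, similar sequences with closer spacing that the pattern does not match. In si-BAP1, 6 of the 11 were lower and 1 was higher, with a median of -0.19, and 4 of the 10 were lower, with a median of -0.12, where 11.1% of all genes were lower. In si-MBD5, 4 of the 11 were lower and 1 higher, with a median of -0.11, and 1 of the 10 was lower, with a median of -0.044, where 8.99% of all genes were lower. The difference between these small groups was not tested.

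The 12 genes below the filter were IFIH1, RIGI, DDX60, IFI16, OAS3, MX1, MX2, UBE2L6, RSAD2, IFI27, IFI44 and IFI44L. Several of them are strongly induced when cells meet interferon. Their 27 probe sets had mean intensities from 2.25 to 24, under the filter's 25.5. In a fit without the filter, read from the brightest probe set of each gene, 1 of the 12, IFIH1, passed in each knockdown. The share of all genes that passed in that fit is not given here, so this count describes IFIH1 and not the dim genes as a set. A dimmer IFI16 probe set passed in si-MBD5 in the unfiltered fit of all probe sets (log2 -0.19, limma adjusted p = 0.0188). In si-BAP1 it did not (-0.073, adjusted p = 0.371). IFIH1 read 8.22, 6.67 and 9.24 on the control arrays, 5.13, 5.21 and 5.29 on the si-BAP1 arrays and 5.85, 5.85 and 5.13 on the si-MBD5 arrays. Both knockdowns lay below control at this dim level in that probe set. The other IFIH1 probe set, dimmer still at 4.30 on average in control, 4.37 in si-BAP1 and 4.87 in si-MBD5, was not lower in either. For the brighter one the fit without the filter gave -0.18 (limma adjusted p = 0.00302) and -0.15 (0.0138).

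Read probe set by probe set, 56 of the 102 were above the filter. In si-BAP1, 24 were lower and 2 higher (46.4%), against 20.5% of all 27195 probe sets. In si-MBD5, 11 were lower and 1 higher (21.4%), against 12.9%. Between the knockdowns 2 were lower in si-BAP1 and 0 higher (3.57%), against 7.81%; these were HERC5 and 1 of the IFI35 probe sets. Probe sets of a gene share their target, so these counts hold fewer independent readings than probe sets. The si-MBD5 count fell from 12 to 6 without si-Control replicate 2 and to 5 without si-MBD5 replicate 1.

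**Figure D3:**
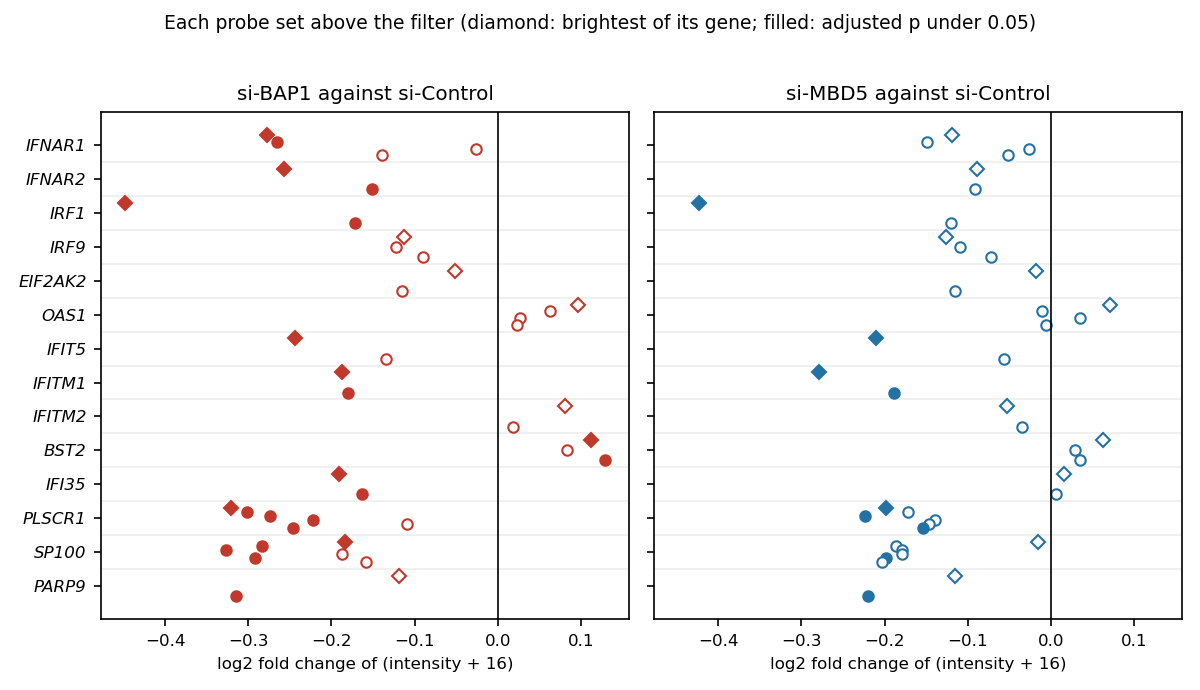
Log2 fold change of log2(intensity + 16) against si-Control (x axis) for each probe set above the filter of the interferon genes with more than 1 such probe set (rows); diamonds are the brightest probe set of a gene, circles the others, and filled marks have an adjusted p under 0.05 over all probe sets. All 6 PLSCR1 and all 6 SP100 marks lie left of 0 in both panels, and the BST2 marks lie right of 0.

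Set directly against each other, the knockdowns differed in 4 of the 28 genes (14.3%), against 9.97% of all genes. HERC5, IFI35 and SP100 were lower in si-BAP1 and IFITM2 was higher. In 10 genes the arrays did not overlap, against 25% of all genes. The median difference was -0.021, against 0.0030 over all genes, and the other 24 genes ranged from -0.17 to 0.13 (adjusted p 0.0941 to 0.973). The count of 4 fell to 1 or 2 in several other settings, and 2 to 3 remained called when single arrays were left out.

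A wider list of 88 genes of the same pathway, not overlapping the 42, was read from the same fit. Of these, 83 had a probe set and 58 were above the filter. In each knockdown 15 of the 58 were lower and 3 higher (31%), where 23.5% and 16.3% of all genes passed in the si-BAP1 and si-MBD5 comparisons; the median was -0.044 in si-BAP1 and -0.065 in si-MBD5. Between the knockdowns 8 were lower in si-BAP1 and 0 higher (13.8%), where 9.97% of all genes passed; these were PARP14, NMI, SHFL, TOR1B, RNF213, TAP1, PSMB8 and PSMB9.

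By role, the induction pathway that leads to interferon genes had 1 lower and 1 higher of 12 genes in si-BAP1 and 2 of each in si-MBD5. Negative regulators had 1 lower of 8 in si-BAP1, IRF2 (log2 -0.17), and 0 in si-MBD5 (1 at an unadjusted p under 0.05). PTPN2, a phosphatase that acts on JAK kinases, was read by 3 probe sets above the filter. The brightest of the PTPN2 probe sets did not pass in si-BAP1 (log2 -0.062, adjusted p = 0.307), but the other two were higher there, by up to 0.40, and none passed in si-MBD5. The further interferon-stimulated genes, 31 of the 58, had 11 lower and 2 higher in si-BAP1 (41.9%) and 10 lower and 1 higher in si-MBD5 (35.5%). The share over all genes was 23.5% and 16.3%; the induction pathway had 16.7% and 33.3%, and the negative regulators 12.5% and 0%.

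Of the interferons themselves, 7 of 10 ligand genes had a single-symbol probe set, and none of these was above the filter. IFNA1, IFNL2 and IFNL3 have only probe sets shared between several symbols, which were not read. IFNB1, the interferon beta gene, read 9.41 ± 0.52 in control, 10.2 ± 1.1 in si-BAP1 and 9.94 ± 0.40 in si-MBD5 (SD, n = 3 each). IFNE, the interferon epsilon gene, read 11.2 to 13.6 in control, 13.8 to 16.2 in si-BAP1 and 14.2 to 15.97 in si-MBD5. The IFNE arrays of both knockdowns lay above control at this dim level, and the arrays of the other 6 overlapped or met those of control. The ligand genes were not in the main test. Of the JAK-STAT genes, JAK1 was lower in si-BAP1 (log2 -0.12, adjusted p = 0.0293) and in si-MBD5 (-0.18, adjusted p = 0.00593), and TYK2 did not pass (-0.033 and -0.067). IFNGR1, the ligand-binding chain of the interferon gamma receptor, was lower in both, by -0.37 (adjusted p = 0.000285) and -0.20 (adjusted p = 0.0305).

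The largest fall of the wider list in both knockdowns was that of PSMB9. PSMB9, an immunoproteasome subunit, on its brightest probe set read 158 ± 5.4 in control, 81.7 ± 2.7 in si-BAP1 and 102 ± 2.4 in si-MBD5 (SD, n = 3 each). Its log2 fold changes were -0.83 and -0.56 (adjusted p = 6e-08 and 5.12e-06), both larger than any fall among the 28 genes. Of its 3 probe sets above the filter 2 were lower in each knockdown, and the third differed by -0.035 and -0.095. PARP14, an ADP-ribosyltransferase, fell by 0.56 in si-BAP1 (adjusted p = 2e-05) and by 0.28 in si-MBD5 (adjusted p = 0.00676).

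PSMB8, another immunoproteasome subunit, fell by 0.55 in si-BAP1, and the peptide transporter TAP1 fell by 0.53 there and by 0.37 in si-MBD5. In si-MBD5 the largest falls also held DTX3L, the ubiquitin ligase next to PARP9 on chromosome 3, at -0.42, and MYD88, an adaptor of Toll-like receptors, at -0.36. DTX3L, TAP1, PSMB8 and MYD88 each had a pair of probe sets above the filter; for the first 3 genes both were lower in each knockdown, and for MYD88 1 was. LY6E, a membrane protein induced by interferon, had the largest rise in both among the brightest probe sets, at 0.33 and 0.26. TRAF3, an adaptor upstream of interferon genes, was higher by 0.20 and 0.14. For TRAF3 and JAK1, 1 of 3 probe sets passed in each knockdown, and at least 1 other had the opposite sign. PNPT1, a mitochondrial ribonuclease, was higher in si-BAP1 (0.11) and RNF135, a RIGI ligase, in si-MBD5 (0.15).

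**Figure D4:**
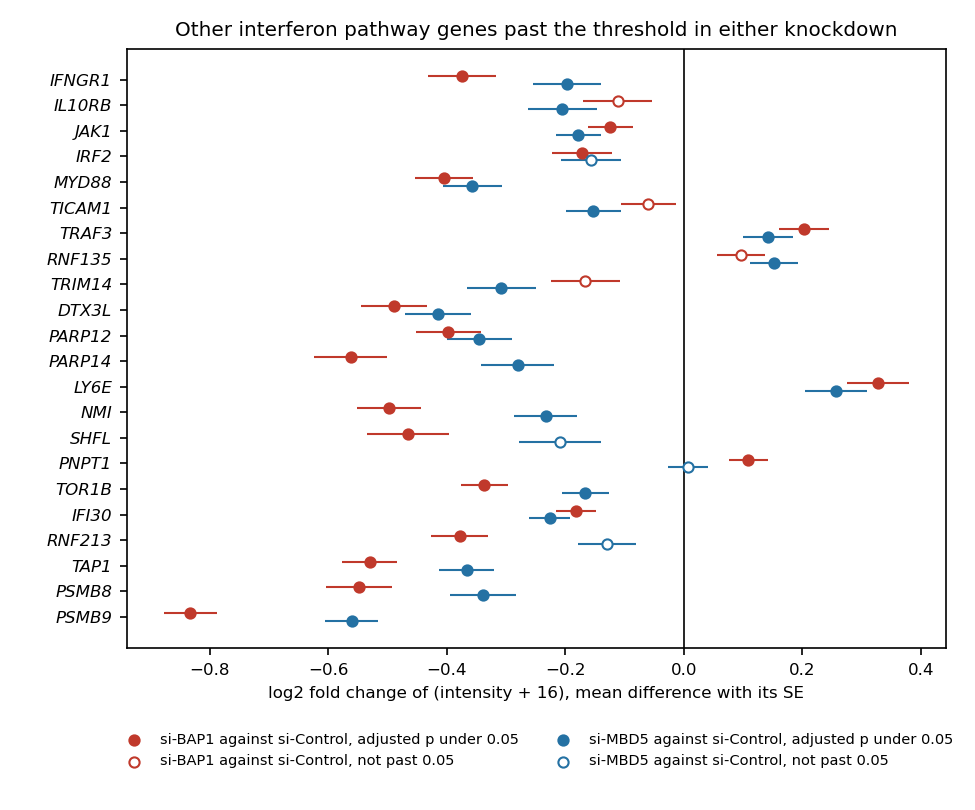
Log2 fold change of log2(intensity + 16) against si-Control (x axis) with the standard error as a bar, for the brightest probe set of the wider pathway list's genes past the threshold in either knockdown (rows); red is si-BAP1, blue is si-MBD5, and filled points have an adjusted p under 0.05. PSMB9 is farthest left at -0.83 and -0.56, and LY6E farthest right at 0.33 and 0.26.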

How the data were processed

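Affymetrix arrays of 9 samples, 3 per group, were analysed. The authors deposited 1 intensity per probe set and array on a linear scale, made with MAS5 per the submitters' processing notes (version: not given in the sources used here). Array medians were near-identical (36.9 to 38.2), which points to scaling across arrays by a step that no source used here states. The log2 values were computed here from the deposited intensity after adding 16, with no further scaling. Of 49395 probe sets, 44988 carried 1 gene symbol, 1832 several and 2473 none, and 102 were controls. Only single-symbol probe sets were read, and 44961 were matched to RefSeq by gene identifier.

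Probe sets entered the test where their mean over all arrays was above the 40th percentile (an intensity of 25.5), and a gene was read from its brightest. A model with 3 group means was fitted to the 9 arrays with limma 3.58.1 (R 4.3.3), leaving 6 residual degrees of freedom; variances were moderated with a trend on intensity, over 12434 of 18132 genes. A second fit covered 27195 probe sets. P-values were Benjamini-Hochberg adjusted over all features of a comparison, with a threshold of 0.05. An exact permutation of 3 against 3 arrays cannot go below p = 0.1, so none was used. The procedure was tested on simulated data. Python 3.11.15 with matplotlib 3.10.9 made the plots.

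The interferon genes, the wider pathway list, the marker lists and the tests were chosen with earlier results of these data known. Array values are given for genes with a call on any probe set and for receptors and transcription factors above the filter; the other members are given by range, and from the wider list at most the 4 largest changes each way with values, beside receptors and kinases of the pathway. Replicate numbers were not used as pairs in the main fit. Correlations of same-numbered deviations ran from -0.43 to 0.48. Arrays of different numbers were not compared, so whether the numbers pair the samples is not settled. Alternatives were other added constants, normalizations, filters, probe set rules, variance settings, a replicate block and leaving out each array.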

Additional observations from a re-analysis of the deposited data

Results flagged for a closer look

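A difference between the knockdowns was called by limma in 4 of the 28 interferon genes (14.3%), against 9.97% of all genes. Read probe set by probe set, the share was 3.57% against 7.81%, and no SP100 or IFITM2 probe set was called. HERC5, the ISG15 ligase, differed by -0.28 log2 (si-BAP1 minus si-MBD5, adjusted p = 0.00824); the si-MBD5 arrays were above control and the si-BAP1 arrays overlapped it. IFI35 differed by -0.21 (adjusted p = 0.00760), with only the si-BAP1 arrays below control; without the probe sets that can read several transcripts (_x_at and _s_at) the adjusted p was 0.0541. SP100 differed by -0.17 (adjusted p = 0.0405) on its brightest probe set, a call lost in 12 of 18 other settings. IFITM2 differed by 0.13 (adjusted p = 0.0486), between 2 groups that each overlapped control. The IFITM2 call was lost in 10 of 17 other settings. Groups of 3 arrays were not searched for single outlying values.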

How the results depend on the processing

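Under the alternatives run, the count of interferon genes called in si-BAP1 against control stayed within 1.5 times the 12 reported (8 to 13), as did that in si-MBD5 against control (5 to 9, against 7); 8 remained in si-BAP1 without si-Control replicate 2. Between the knockdowns the count of 4 genes fell to 2 with no filter, to 2 with the mean of probe sets, to 1 without _x_at and _s_at probe sets and to 2 with the replicate block, and was 2 to 3 when single arrays were left out. Probe sets called between the knockdowns numbered 4 with quantile normalization and 5 with the filter at the 60th percentile, against 2, and 1 to 3 without single arrays (1 without si-BAP1 replicate 3). Those in si-MBD5 against control, 12 as reported, numbered 5 to 14 without single arrays. Some of these settings also had fewer arrays or genes, and the cause of the shifts was not tested. With the replicate block, 13, 7 and 2 interferon genes and 27, 12 and 2 probe sets were called in the 3 comparisons. Whether the replicate numbers pair the samples is not settled.

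Of 511 values of single genes under other settings, 465 kept their direction and side of the threshold, 38 lost a call, 8 gained one and 0 changed direction. Over all genes, the si-MBD5 count of 2025 fell to 1269 without si-Control replicate 2, and the count of 1240 between the knockdowns fell to 756 without si-BAP1 replicate 3 and to 721 without si-MBD5 replicate 1. Signal over background limits what these 3 arrays per group can show, and 12 interferon genes were too dim for the main test.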
